A study of Mus musculus with 8 samples.

Results

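Expression is described for 10 genes of connective tissue matrix, Ogn, Lum, Dcn, Prelp, Mgp, Postn, Sparc, Fn1, Fbln1 and Fbn1, in RNA-seq of neural progenitor cells from mouse embryos at embryonic day 14. They were taken by symbol, and all 10 were among the 32499 genes of the deposited count table; 9 of them were among the 15021 genes with enough counts to test, and Dcn was not. There were 8 libraries, 4 labelled 53BP1 KO and 4 labelled control, all of strain C57BL/6. The KO-labelled embryos came from Trp53bp1tm1Jc females crossed with males that carried in-frame deletions of 53bp1 made by CRISPR in C57BL/6J zygotes, and the controls were wild-type embryos. Neural tubes were dissociated with collagenase and the progenitors were sorted with the dye NeuroFluor CDr3. The labels do not say whether replicates were separate embryos, pools or cultures, or whether cells were taken directly or after differentiation medium, so a p-value here reflects how far the libraries scatter, which may be technical.

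Libraries held between 11081419 and 24339621 counts, and 3 counts were worth between 0.126 and 0.261 CPM, that is, counts per TMM-scaled library size. Markers of neural progenitors summed to between 9573 and 12911 CPM, and those of microglia and of erythroid cells to at most 5.32 and 3.37 CPM in any library. The level of Trp53bp1, the targeted gene, overlapped: it ran from 412 to 497 counts in controls, against 341 to 617 in KO-labelled ones, and the count of a gene with an in-frame deletion does not by itself check the label. The groups also differed in sex-linked RNA. Xist had at least 23853 counts in every control and at most 16 in every KO-labelled library, and Ddx3y had 0 counts in every control and at least 579 in every KO-labelled library. Genotype and sex therefore cannot be told apart in any comparison between the groups.

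The small leucine-rich proteoglycans (Ogn, Lum, Dcn and Prelp here) are short secreted proteins built of leucine-rich repeats. They bind fibrillar collagen and set the spacing of its fibrils in tendon, cornea, skin and the meninges. The other genes encode the Gla protein Mgp, which restrains calcification, the matricellular proteins periostin and SPARC, and the large glycoproteins fibronectin, fibulin-1 and fibrillin-1, which form the scaffold of loose connective tissue. In the embryonic nervous system such matrix is mostly known from the meninges, vessels and adjoining mesenchyme, whereas progenitors themselves are surrounded by lecticans and tenascins.

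The genes were chosen by their function and by their measured difference in level between these same groups, so their values in that comparison are given as a description. At an adjusted p of 0.05 (quasi-likelihood test of edgeR, adjusted by Benjamini-Hochberg over all genes tested), 30.0% of all 15021 genes passed, 13.9% lower and 16.1% higher in the KO-labelled libraries. Of the 9 matrix genes tested, 3 fell (Ogn, Lum and Mgp), 1 rose (Fn1) and 5 did not pass. Since the choice of genes used this comparison, nothing is read from that share. RNA from fewer cells of a type and less RNA per cell cannot be told apart in such libraries.

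Ogn encodes osteoglycin (mimecan), a proteoglycan of collagen fibrils. Its level was 4.88, 6.19, 5.16 and 8.79 CPM in controls 1 to 4 and 0.541, 0.523, 1.58 and 0.671 CPM in KO-labelled 1 to 4. The groups were far apart, and the highest library of each stood away from the other three. The log2 fold change was -2.89 (SE 0.32).

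Lum encodes lumican, the collagen-spacing proteoglycan of the cornea. It had 2.63, 2.44, 3.55 and 4.46 CPM in controls 1 to 4. In KO-labelled 1 to 4 it had 1.03, 0.958, 0.789 and 0.964 CPM, so every one of these lay below every control. The log2 fold change was -1.79 (SE 0.27). Dcn, which encodes decorin, was at the edge of detection, with 4, 3, 5 and 6 counts in the controls, against 2, 0, 2 and 3 counts in KO-labelled ones. It was left out of the test by the filter on low counts, and no fold is given for counts so near the floor of 3. Prelp, which encodes an anchor between basement membrane and collagen, did not follow Ogn and Lum. Its levels were 5.54, 5.81, 6.26 and 6.47 CPM in the controls, against 6.89, 8.19, 5.98 and 7.97 CPM in KO-labelled ones, which overlapped (log2 fold change 0.27, SE 0.15).

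Mgp encodes matrix Gla protein, the inhibitor of calcification in cartilage and vessel walls. It had 30, 23, 27 and 71 counts in controls 1 to 4, or 1.64, 1.25, 1.74 and 4.59 CPM, and 6, 2, 3 and 5 counts in KO-labelled 1 to 4, or 0.295, 0.174, 0.169 and 0.210 CPM. The groups did not overlap, and control 4 was well above the other controls. The log2 fold change was -3.36 (SE 0.51), or -2.80 without control 4, and it rests on 16 counts in all KO-labelled libraries together.

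Postn encodes periostin, a ligand of integrins in growing connective tissue. Its levels were 0.822, 0.868, 0.967 and 2.72 CPM in the controls, against 0.492, 0.436, 0.846 and 0.293 CPM in KO-labelled ones. Control 4 alone was high, and the other controls reached down to KO-labelled 3. The log2 fold change was -1.37 (SE 0.49) with an adjusted p of 0.0505 by edgeR, and -0.79 without control 4. Postn passed the threshold under 9 of the 15 alternatives in which it was tested, DESeq2 and limma voom among them, and did not pass without control 4. Sparc, which encodes a collagen-binding matricellular glycoprotein, ran from 26.6 to 31.4 CPM in the controls and from 27.8 to 33.3 CPM in KO-labelled ones. Its log2 fold change of 0.01 (SE 0.10) changed sign under other scalings.

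Fn1, which encodes fibronectin, was the 1 gene of the set that rose. It had 2.25, 4.99, 5.55 and 4.79 CPM in controls 1 to 4 and 10.2, 13.6, 7.84 and 12.2 CPM in KO-labelled 1 to 4. All KO-labelled libraries were above all controls, and control 1 was the lowest of the 8 (log2 fold change 1.32, SE 0.24).

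Fbln1 encodes fibulin-1, a partner of fibronectin and basement membranes. It had 23.9, 20.8, 22.0 and 31.3 CPM in the controls, against 24.6, 25.3, 25.8 and 27.1 CPM in KO-labelled ones. All KO-labelled values lay inside the range of the controls, which control 4 set (0.07, SE 0.13; the sign turned without control 2). Fbn1 encodes fibrillin-1 of the microfibrils and lies on chromosome 2, as does Trp53bp1. It had 12.2, 14.7, 14.3 and 14.2 CPM in the controls, against 10.9, 14.1, 8.23 and 9.43 CPM in KO-labelled ones. KO-labelled 2 was at the level of the controls and the other three were lower (-0.39, SE 0.15, adjusted p = 0.0701 by edgeR). Without KO-labelled 2 the value was -0.54 and its adjusted p 0.0107.

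**Figure D1:**
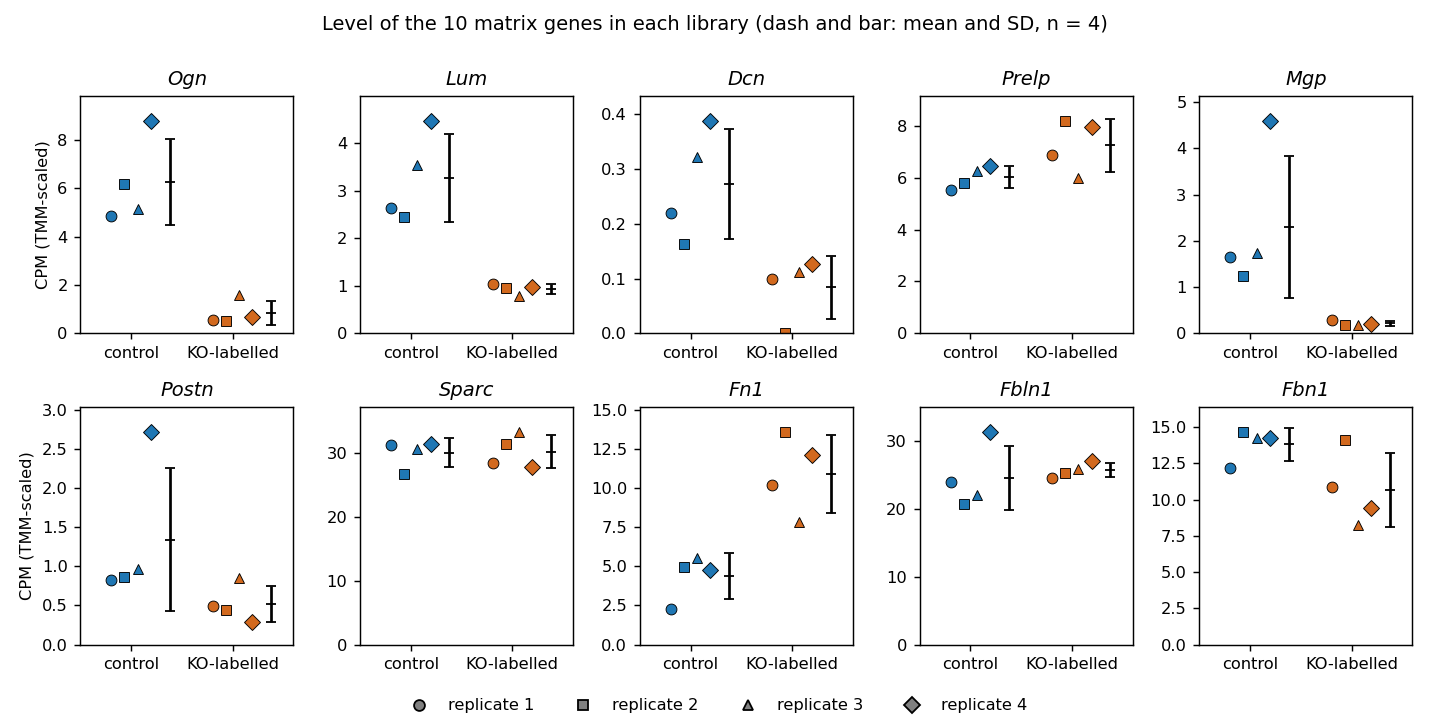
CPM (vertical axis, linear, from 0) of each of the 10 genes in the 4 control and 4 KO-labelled libraries, with the marker shape giving the replicate and the bar the mean and SD. Ogn, Lum and Mgp show no overlap with the KO-labelled libraries lower, and Fn1 no overlap with them higher. Dcn does not overlap in CPM either, but control 2 and KO-labelled 4 both had 3 counts of it. Control 4 is the highest control for Ogn, Lum, Dcn, Prelp, Mgp, Postn, Sparc and Fbln1.

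Without overlap between the groups, Ogn, Lum and Mgp of the 9 tested genes were lower and Fn1 was higher; among all genes tested 29.9% had no overlap, 13.9% with the KO-labelled libraries lower and 15.9% with them higher. The 10 genes summed to 85.3, 83.8, 90.5 and 109.2 CPM in controls 1 to 4 and to 83.4 to 94.7 CPM in KO-labelled ones. The sum thus overlapped between groups, and Sparc and Fbln1 supplied most of it.

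Whether the genes vary together was asked inside the groups, since the groups themselves stand apart and a correlation over all libraries would only restate that. For each gene, log2 CPM in a library was set against the mean of its own group. Pearson's r of these deviations over the 8 libraries is a description: the points share libraries and scaling, and 2 group means were removed. Over the 36 pairs of the 9 tested genes the median r was 0.29, with 25 pairs above 0, and the range was -0.56 to 0.88. Over all pairs of the 15021 genes the median was -0.0030, with the middle of the distribution between -0.35 and 0.34. The weak median of the matrix genes rested on 1 library. Without control 4 it was -0.048, with 14 pairs above 0. Without any other single library it lay between 0.27 and 0.40.

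Control 4 was the highest control for 7 of the 9 tested genes, all but Fn1 and Fbn1, and the lowest for none. For all genes tested, control 4 was the highest control in 32.3% and the lowest in 30.7%, so this library was at the edge of its group for many genes. Fbn1 was highest in control 2 (19.9% of all genes) and Fn1 in control 3 (21.2%); none was highest in control 1 (26.5%). The lowest control was control 1 for Ogn, Fn1, Postn, Fbn1 and Prelp (27.3%) and control 2 for Lum, Mgp, Sparc and Fbln1 (19.2%), and control 3 for none (22.8%). Within the KO-labelled group no library held most of the highest values: these were KO-labelled 1 for Lum and Mgp (19.2%), 2 for Fn1, Fbn1 and Prelp (29.9%), 3 for Ogn, Sparc and Postn (30.2%) and 4 for Fbln1 (20.7%). The lowest was KO-labelled 3 for Lum, Mgp, Fn1, Fbn1 and Prelp (30.7%), 4 for Sparc and Postn (19.5%), 1 for Fbln1 (18.7%) and 2 for Ogn (31.1%). The deviation of control 4 was 1.14 for Mgp, 1.13 for Postn, 0.52 for Ogn, 0.47 for Lum, 0.37 for Fbln1, 0.10 for Prelp and 0.07 for Sparc on the log2 scale. The depth of control 4, 15580941 counts, was inside the range of the other libraries.

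**Figure D2:**
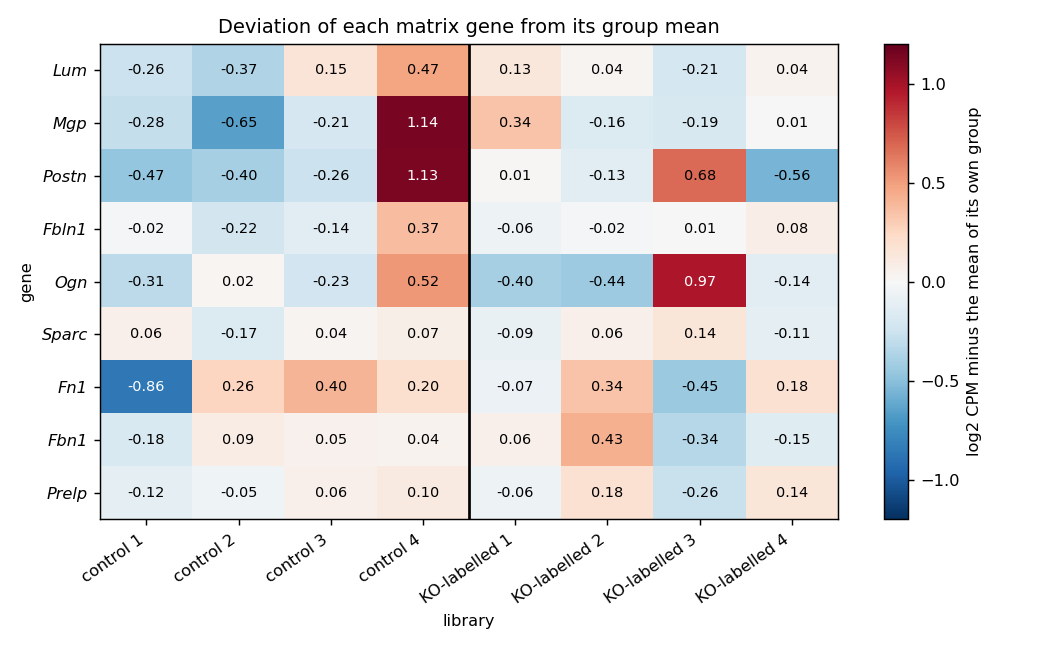
Log2 CPM minus the mean of the own group (colour and printed value) for the 9 tested genes in the 8 libraries. Control 4 is positive in every row, from 0.04 in Fbn1 to 1.14 in Mgp, whereas KO-labelled 3 is positive for Ogn, Postn, Sparc and barely Fbln1, and negative for Lum, Mgp, Fn1, Fbn1 and Prelp.

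Among the pairs, 2 patterns were named after their values were seen. In Lum, Mgp, Postn and Fbln1 the pairwise r was between 0.52 and 0.88, with a median of 0.71. That median was -0.096 without control 4, and the pair of Lum and Mgp kept an r of 0.72. In Fn1, Fbn1 and Prelp the pairwise r was between 0.67 and 0.74, with a median of 0.70, and it was 0.70 without control 4 and between 0.55 and 0.76 without any single library. These 3 genes were low together in control 1 (deviations of -0.86, -0.18 and -0.12) and in KO-labelled 3 (-0.45, -0.34 and -0.26), and high together in KO-labelled 2 (0.34, 0.43 and 0.18). Fn1 and Prelp both lie on chromosome 1 and Fbn1 on chromosome 2. Between the 2 patterns the median r was 0.094, in a range of -0.17 to 0.58. The patterns were not cleanly apart: Lum had an r of 0.58 with Prelp and 0.47 with Fn1 (0.57 and 0.50 without control 4). With Postn and Fbln1, of its own pattern, Lum had 0.52 and 0.70, but -0.29 and -0.016 without control 4.

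Ogn was not in either pattern. Its r was 0.01 with Lum and 0.25 with Mgp, the other genes that fell, but 0.75 with Postn (0.74 without control 4), and it was -0.56 with Fbn1 and -0.49 with Prelp. Ogn and Postn were the 2 genes clearly raised in KO-labelled 3, by 0.97 and 0.68. In Ogn this is 28 counts against 11, 6 and 16 in KO-labelled 1, 2 and 4, and in Postn 15 counts against 10, 5 and 7. Inside the KO-labelled group, Lum and Mgp had the same order of libraries (1, 4, 2 and 3 from high to low), and Ogn had another (3, 4, 1 and 2). Parts of the shared order were near ties. Mgp had 2 and 3 counts in KO-labelled 2 and 3 (0.174 and 0.169 CPM), and Lum had 0.958 and 0.964 CPM in KO-labelled 2 and 4. Ogn overlaps Cenpp, a centromere gene, in the RefSeq table of GRCm38. Cenpp was also highest in control 4 and KO-labelled 3 of their groups, at 12.3 and 12.7 CPM, against 6.96 to 11.5 CPM and 6.01 to 9.69 CPM in the others. Its own log2 fold change was -0.21 (SE 0.23). The strand setting of the counting is not given in the sources used here, and the part of Cenpp in the Ogn counts was not tested.

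**Figure D3:**
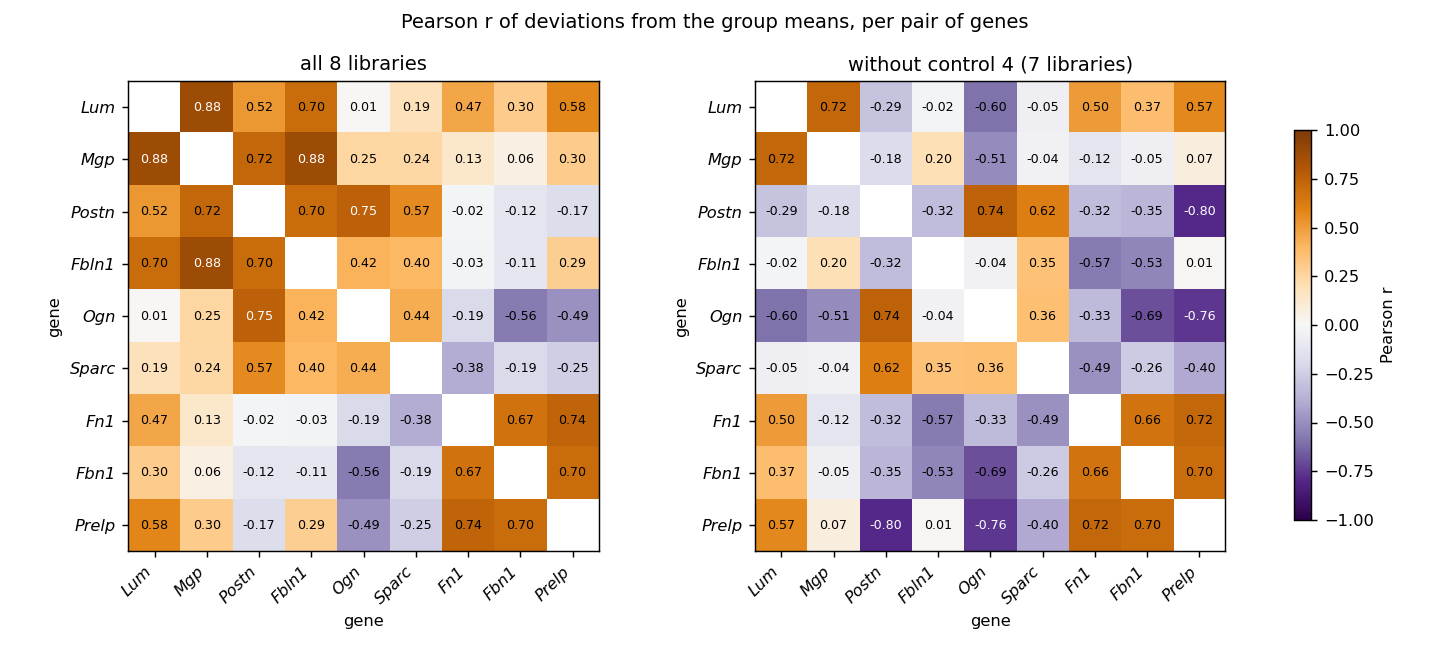
Pearson r of within-group deviations for each pair of the 9 tested genes, over all 8 libraries (left) and without control 4 (right). The square of Lum, Mgp, Postn and Fbln1 pales from between 0.52 and 0.88 except for Lum with Mgp, whereas Fn1, Fbn1 and Prelp stay between 0.66 and 0.72 and Ogn with Postn at 0.74.

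By RefSeq sequences of GRCm38.p6, 6 of the 10 genes matched a promoter entry by symbol; Lum, Dcn, Mgp and Fn1 did not. The windows of Ogn and Postn are shown, 1 of several pairs that moved together with and without control 4. Lum with Mgp, and Fn1, Fbn1 and Prelp with each other, also did so. Ogn and Postn were both highest of their group in KO-labelled 3 (deviations of 0.97 and 0.68), and their r without that library was not measured. Of KO-labelled 1, 2 and 4, the last was the highest for Ogn (-0.14) but the lowest for Postn (-0.56). The window of Prelp is shown as well. Without control 4 the r of Prelp was -0.76 with Ogn and -0.80 with Postn (-0.49 and -0.17 over all libraries). Each window is the 250 bases before an annotated start, 5′ to 3′ on the gene's strand. Capitals mark TATAAA or CCAAT found on either strand. Ogn is at chr13:49607765-49608014 (plus strand), Postn, by the second of 2 annotated starts, at chr3:54360857-54361106 (plus strand), and Prelp at chr1:133921402-133921651 (minus strand).
Ogn: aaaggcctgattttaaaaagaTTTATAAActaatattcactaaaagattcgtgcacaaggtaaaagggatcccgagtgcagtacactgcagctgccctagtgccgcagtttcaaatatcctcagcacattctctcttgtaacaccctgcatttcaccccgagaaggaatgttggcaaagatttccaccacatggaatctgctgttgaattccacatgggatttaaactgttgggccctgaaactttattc
Postn: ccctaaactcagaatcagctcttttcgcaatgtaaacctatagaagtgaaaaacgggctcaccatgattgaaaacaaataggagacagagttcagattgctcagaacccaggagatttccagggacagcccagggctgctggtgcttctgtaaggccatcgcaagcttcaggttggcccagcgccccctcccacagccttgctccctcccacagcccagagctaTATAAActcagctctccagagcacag
Prelp: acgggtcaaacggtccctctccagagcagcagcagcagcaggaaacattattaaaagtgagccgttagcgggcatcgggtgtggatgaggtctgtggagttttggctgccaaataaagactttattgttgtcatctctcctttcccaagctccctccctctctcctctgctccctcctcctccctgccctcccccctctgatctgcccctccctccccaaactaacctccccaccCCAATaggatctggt
TATAAA, the core of the TATA box, was found at -26 to -21 in the Postn window and on both strands, overlapping, at -229 to -222 in the Ogn window. It was in 12.4% of all 32841 windows of this length. CCAAT was at -15 to -11 in the Prelp window and in 33.9% of all windows. The other motifs searched, on both strands, were GGGCGG (32.7% of windows), TGANTCA (6.75%) and CAGACA (17.1%), and none was in these 3 windows. The window of the first Postn start, not shown, held none of the motifs searched. The bases checked past the start were found in a transcript of the gene for Prelp and the second Postn start. They were not found for Ogn or the first Postn start. The GC content was 42.0% in Ogn, 52.0% in Postn and 55.6% in Prelp, against a median of 52.4%. These are matches of letters, not sites shown to be bound.

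Relatives of the set were taken from lists written by function, with earlier results of these data known. Every list count below stands beside 16.1% of all genes tested that rose and 13.9% that fell. None of these counts was tested against those shares. Among 14 other small leucine-rich proteoglycans in the table, 6 could be tested, and 1 rose and 0 fell by edgeR. At an unadjusted p under 0.05, 0 of the 6 were lower by edgeR, DESeq2 or limma voom. Leaving out 1 library changed this: without control 3, Aspn fell, and without KO-labelled 2, Aspn and Tsku fell. Chadl, a chondroadherin-like gene, rose from 3.63 ± 0.510 to 6.43 ± 0.812 CPM (SD, n = 4; 0.82 on the log2 scale, SE 0.17, edgeR adjusted p = 0.00188). The genes beside Ogn on chromosome 13, Omd, Aspn and Ecm2, could be tested only for Ecm2, with 21, 63, 38 and 46 counts in the controls, against 68, 28, 52 and 50 in KO-labelled ones (0.12, SE 0.29). Aspn had 10, 10, 5 and 18 counts in the controls, against 2, 4, 5 and 2 in KO-labelled ones, and Omd had 2 counts in all. Kera and Epyc, beside Lum and Dcn on chromosome 10, had 16 and 21 counts in all controls and 2 and 6 in all KO-labelled libraries. Beside Prelp on chromosome 1, Optc had a log2 fold change of 0.41 (SE 0.42), and Fmod had 22 counts in all controls and 5 in all KO-labelled libraries.

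In the fibulin and elastic fibre list, 5 of 17 tested genes rose and 2 fell, with a median log2 fold change of 0.04, against 0.0011 for all genes tested. Fbln5, a fibulin of elastic fibres, rose from 0.713, 1.14, 1.81 and 3.36 CPM in the controls to 44.2, 34.0, 39.5 and 43.4 CPM in KO-labelled ones (4.56, SE 0.28, adjusted p = 3.29e-08 by edgeR). Fbln7, a cell-adhesion fibulin on chromosome 2, rose from 7.64 ± 0.691 to 70.3 ± 9.01 CPM (SD, n = 4; 3.20, SE 0.12). Fbln2, the closest relative of Fbln1, had a log2 fold change of 0.04 (SE 0.12). Fbn2, the second fibrillin, fell from 232.0 ± 24.9 to 102.6 ± 10.2 CPM (-1.18, SE 0.10, adjusted p = 1.28e-06 by edgeR), and elastin (Eln) fell by 0.83 on the log2 scale (SE 0.12). The median ran from -0.0040 without control 2 to 0.19 with no filter on low counts. The count of rises was 3 with DESeq2, with upper-quartile scaling or with the replicate number as a block, and Mfap2 (0.98, SE 0.34) lost its call under 11 of 16 alternatives. The count of falls was 4 with limma voom and without control 4 or KO-labelled 2.

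Among the relatives of Sparc, Sparcl1, which encodes hevin of astrocytes, rose. It had 672.6, 613.7, 580.1 and 322.5 CPM in the controls, against 1513 to 1711 CPM in KO-labelled ones (1.58, SE 0.17, adjusted p = 1.07e-05 by edgeR). Here control 4 was the lowest library, opposite to Mgp and Postn. Spock2, a testican, rose from 50.7 ± 14.2 to 103.6 ± 11.5 CPM (SD, n = 4; 1.03, SE 0.17), and Tgfbi, the closest relative of Postn, had a log2 fold change of -0.15 (SE 0.42). Of the 15 matricellular genes tested 3 rose and 3 fell (median -0.37; 5 fell with limma voom or no filter), with the adhesion protein gene Cyr61 (-0.75, SE 0.08) and the follistatin-like Fstl1 (-0.37, SE 0.09) among the falls. Of 6 tested genes of Gla proteins and calcification 2 rose and 1 fell (median 0.30). The count of rises was 1 with the replicate block and without control 1, 2 or 3 or KO-labelled 1 or 4, where Ggcx, the carboxylase of Gla proteins, lost its call. Gas6 and Pros1, secreted Gla proteins like Mgp, had log2 fold changes of 0.31 (SE 0.20) and 0.04 (SE 0.09). Enpp1, which makes pyrophosphate, an inhibitor of mineral, rose (0.88, SE 0.16). The phosphatase gene Alpl, which removes it, fell by 0.79 (SE 0.23), or 0.39 without control 4, and its call was lost without KO-labelled 4 and with robust dispersion.

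**Figure D4:**
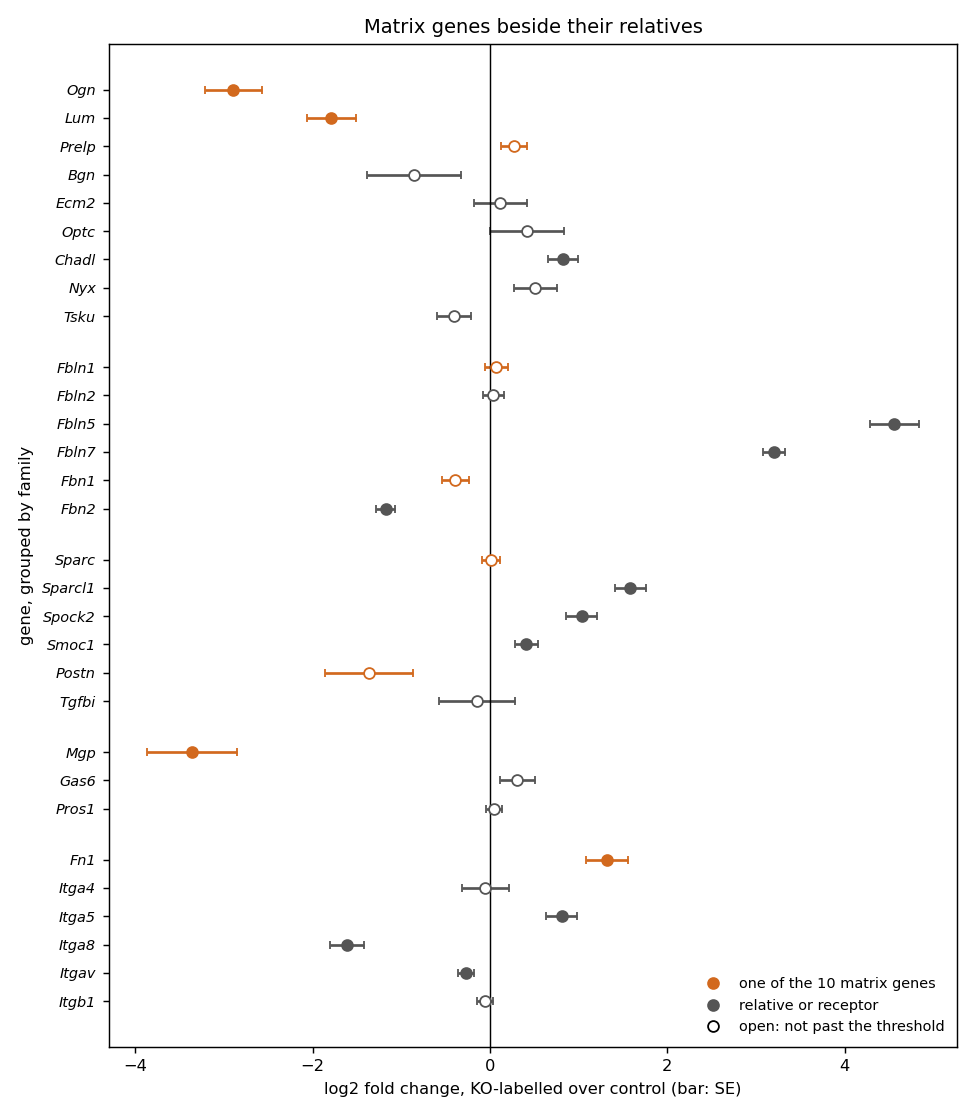
Log2 fold change with SE (horizontal axis) of the tested matrix genes, in orange, beside relatives and fibronectin receptor genes, in grey; open circles did not pass an adjusted p of 0.05. Fbln5 at 4.56 and Fbln7 at 3.20 stand far from Fbln1 at 0.07, and Sparcl1 at 1.58 from Sparc at 0.01.

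Receptors of fibronectin, periostin and decorin moved both ways, with 2 of 14 tested genes higher and 5 lower (median -0.12). Itga5, whose product with integrin β1 is the classical fibronectin receptor, rose from 8.33 ± 2.34 to 14.6 ± 1.17 CPM (SD, n = 4; 0.81, SE 0.17, adjusted p = 0.00300 by edgeR). Itga8, another fibronectin-binding subunit, fell from 8.25 ± 1.72 to 2.72 ± 0.392 CPM (-1.61, SE 0.19, adjusted p = 2.24e-05 by edgeR), and Itgb5 fell by 0.66 (SE 0.11). Ddr2, a receptor tyrosine kinase for fibrillar collagen, rose from 22.1 ± 6.34 to 338.3 ± 41.2 CPM (SD, n = 4; 3.94, SE 0.17, adjusted p = 1.31e-09 by edgeR). The count of falls was 3 when control 2, control 3, or KO-labelled 3 or 4 was left out. Of 13 genes of the TGF-beta pathway, a known inducer of Fn1 and Postn, 2 rose, Smad6 (1.77, SE 0.31) and Tgif1 (1.28, SE 0.13), an inhibitory Smad and a transcriptional repressor of Smad targets. The 1 fall, Smad2 (-0.25, SE 0.09), lost its call under 10 of 16 alternatives.

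Of the matrix of neural tissue, 6 of 14 genes tested rose and 2 fell (median 0.18, or 0.39 without control 4). Tnc, which encodes tenascin-C of radial glia, rose from 424.5 ± 27.3 to 696.0 ± 98.4 CPM (SD, n = 4; 0.71, SE 0.11), and Cspg5, a neural chondroitin sulphate proteoglycan, rose by 0.66 (SE 0.10). Acan (aggrecan) fell by 1.63 (SE 0.43). Of 15 basement membrane genes 2 rose, or 1 without KO-labelled 4, and 4 fell (median -0.26). Lama1, a laminin chain of early and meningeal basement membranes, fell by 1.75 (SE 0.46), or 0.74 without control 4, with its call lost under robust dispersion, and Lamb1 fell by 0.61 (SE 0.11).

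Markers of cells that make such matrix were measured beside the genes. The 19 fibroblast markers in the table summed to 133.5, 119.6, 131.3 and 148.9 CPM in controls 1 to 4 and to 102.6, 109.3, 98.7 and 95.0 CPM in KO-labelled 1 to 4, without overlap. Of 11 tested, 4 fell and 2 rose; none of the 19 was at 0 in either group. Col3a1 had 25.1, 19.5, 23.0 and 54.0 CPM in the controls, so it was highest in control 4 like Mgp and Postn, and 5.86 to 7.93 CPM in KO-labelled ones (-2.09, SE 0.27). Col1a1 had 16.2 CPM in control 4, against 4.50 to 5.21 CPM in the other controls, and fell too (-2.08, SE 0.38). Pdgfra was also highest in control 4, but other fibroblast markers, Ptgds, Foxc1, Prrx1 and Cped1, were lowest there. Ptgds had 9.89 CPM in control 4 against 16.3 to 23.9 CPM in the other controls, and Foxc1 had 3.88 against 9.93 to 11.9 CPM. Twist1, a mesenchymal transcription factor, rose (2.49, SE 0.38), and so did Ptgds (0.79, SE 0.19). The sums of the 10 endothelial, 11 cartilage and bone and 10 muscle markers were also lower in every KO-labelled library, from between 10.6 and 17.7 to between 4.15 and 9.50 CPM, from between 92.1 and 135.3 to between 47.9 and 67.0 CPM, and from between 37.9 and 49.5 to between 23.9 and 26.3 CPM. One gene carried most of the cartilage and muscle sums: Col11a1 supplied 93.8 of 106.1 CPM and Myh8 32.0 of 43.1 CPM on average in the controls. Both fell, whereas the cartilage markers Col9a1 and Matn3 had log2 fold changes of 0.22 (SE 0.23) and 0.45 (SE 0.32). Of 5 muscle markers tested 2 fell, Myh8 and Tnnt1. Myh3 (-1.23, SE 0.50), Actc1 (-0.11, SE 0.15) and Mylpf (0.08, SE 0.41) did not pass. Of 4 endothelial markers tested 2 fell, Kdr and Flt1, and Pecam1 (-1.01, SE 0.54) and Egfl7 (0.02, SE 0.39) did not pass. Among all genes tested 13.9% fell. The sum of the 11 pericyte and smooth muscle markers overlapped, at 78.9 to 124.0 CPM in the controls, against 106.3 to 146.9 CPM in KO-labelled ones. Notch3, which progenitors also express, made up most of it and rose from 75.5 ± 8.59 to 120.6 ± 20.1 CPM (SD, n = 4), whereas Tagln, of smooth muscle, fell by 1.97 on the log2 scale (SE 0.49), or 1.16 without control 4.

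In 9 of the 12 marker lists, neural progenitors and neurons included, control 4 had the highest sum of the controls. The exceptions were microglia, erythroid cells and astrocytes. The progenitor sum was mostly Fabp7, at 9024 CPM in control 4 against 6636 to 7399 CPM in the other controls. Nes and Notch1 were also highest in control 4, but Sox2, Sox1, Pax6, Vim, Hes1, Slc1a3, Msi1 and Prom1 were lowest there. The neuron sum was mostly Map2, at 444 CPM in control 4 against 336 to 394 CPM in the other controls. Tubb3 and Rbfox3 were also highest in control 4, whereas Elavl3 and Elavl4 were lowest there. The sum of the 8 astrocyte markers was lowest in control 4 (287 CPM against 395 to 417 CPM in the other controls). In KO-labelled libraries it was 1039 to 1193 CPM. Slc1a2 and Agt were lowest in control 4 among the controls, at 145 and 14.9 CPM. Gfap, Aldoc and Aldh1l1 were highest there, at 12.1, 64.3 and 10.4 CPM, and S100b, Aqp4 and Gja1 were neither. The markers at 0 in all controls were Ttr, Hba-a1, Hba-a2 and Hbb-bs, and those at 0 in all KO-labelled libraries were Sp7, Ttr, Hba-a1 and Hba-a2. The part of these cell types, and of control 4, in the difference of Ogn, Lum and Mgp between the groups was not tested, but without control 4 the log2 fold changes were -2.70, -1.61 and -2.80.

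**Figure D5:**
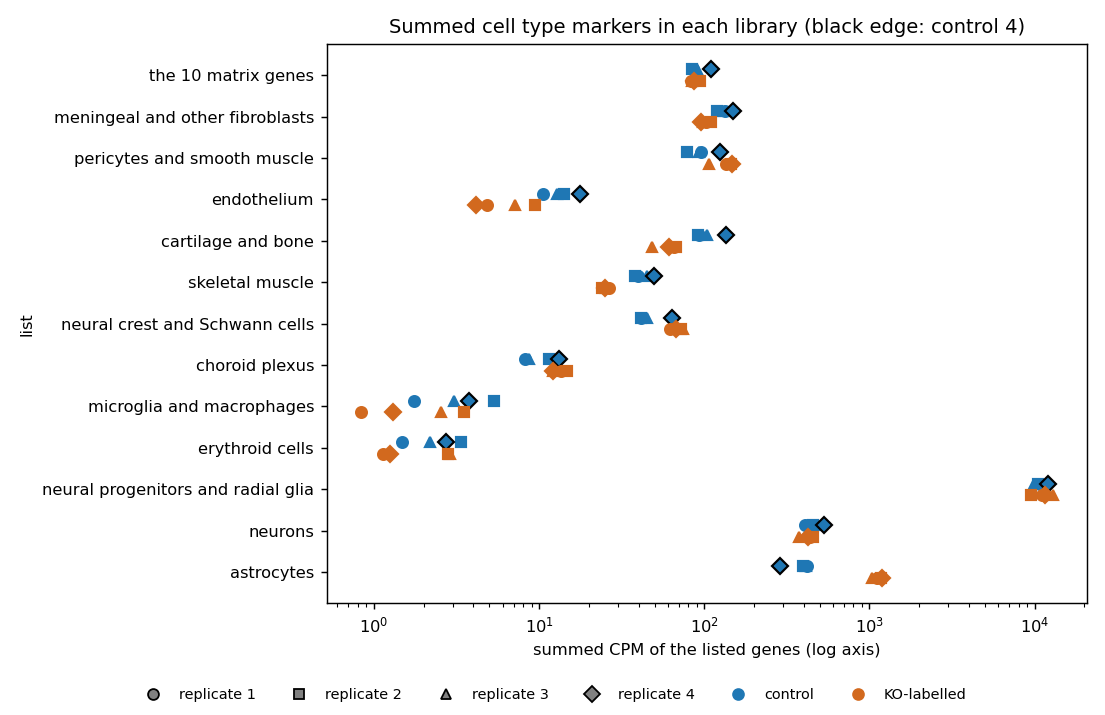
Summed CPM (log axis) of the 10 matrix genes and of 12 lists of cell type markers in each library, with a black edge on control 4. Fibroblast, endothelial, cartilage and muscle markers are lower in all KO-labelled libraries, astrocyte markers are higher, and control 4 is the highest control in 9 of the 12 lists.

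Outside the set, the genes most like the mean of the 9 scaled deviation profiles, among 13617 other genes with a mean of at least 1 CPM, were Scfd2 (r = 0.99), Zfp799 (0.99), Ext1 (0.99), Nt5e (0.98), Pak3 (0.98), Fth-ps2 (0.98), Mroh3 (0.97) and Sv2c (0.97), over 8 libraries. All 8 were highest in control 4 among the controls. This follows from how they were picked, since the mean profile itself had its largest value in control 4 (0.458). Sv2c, a synaptic vesicle protein gene, had 67.4 CPM there against 20.0 to 25.0 CPM in the other controls, and Nt5e, which encodes the ectonucleotidase CD73, had 12.2 CPM against 4.28 to 6.19 CPM. Ext1, a polymerase of heparan sulphate, had 223.2 CPM against 189.1 to 201.2 CPM. Without control 4, r with the mean of the matrix genes was between 0.58 and 0.97 for these 8 genes. The remaining libraries also served to pick the genes from 13617, so nothing is read from the height of either r.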

How the data were processed

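RNA was measured in 4 control and 4 KO-labelled libraries. The authors deposited whole-number counts of reads per gene; HTSeq 0.6.1p1, CASAVA and the builds mm9 and NCBIM37 are named per the submitters' processing notes. For aligner and strand setting: not given in the sources used here. Libraries were stranded total RNA, per the labels' protocols. Groups came from the labels.

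Genes were filtered with filterByExpr, scaled by TMM and tested with edgeR 4.0.16 (quasi-likelihood, R 4.3.3) over all 15021 genes, with Benjamini-Hochberg adjustment at 0.05. The fit was tested on simulated data. Within-group deviations used log2 CPM with a prior count of 2. Alternatives were DESeq2 1.42.0, limma 3.58.1 voom, other scalings and filters, a replicate block and leaving out each library. No 2 libraries of the same group agreed within sampling noise, and pairs across the groups were not compared. The members and lists were chosen with earlier results of these data known. Named genes outside the set were the called, non-overlapping genes with the largest changes in each list, neighbouring leucine-rich genes and the 8 most alike; others named, such as Fbln2, Tgfbi, Tsku, Gas6, Pros1, Eln, Cenpp, Col9a1 and Matn3, were chosen after their values were seen. Promoter sequences and gene overlaps are from RefSeq, GRCm38.p6.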

Additional observations from a re-analysis of the deposited data

Results flagged for a closer look

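In 6 of 44 groups of 4 libraries tested, 1 library stood away from the other three by more than the critical share of Dixon's test of the range; chance alone marks about 1 group in 20. Among the matrix genes these were Ogn in KO-labelled 3 (1.58 CPM), Mgp in control 4 (4.59 CPM), Postn in control 4 (2.72 CPM) and Sparc in control 2 (26.6 CPM, the low side). Among the marker sums these were neural crest and Schwann cells (63.8 CPM, high) and astrocytes (287 CPM, low), both in control 4. Of the 6, 4 were in control 4.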

How the results depend on the processing

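Of the matrix genes, 1 rose and 3 fell. Leaving out each library gave 1 rising and 3 to 4 falling, limma voom gave 5 falling, and DESeq2, robust dispersion, RLE scaling, upper-quartile scaling and no filter gave 4. Over all genes, 1753 to 2432 rose and 1497 to 2193 fell when each library was left out; limma voom gave 3127 and 2974. The median r within groups ranged from -0.048 (without control 4) to 0.40 when each library was left out, and that of Lum, Mgp, Postn and Fbln1 ran from -0.096 without control 4 to 0.86 without KO-labelled 3. The log2 fold change of Sparc changed sign with DESeq2 (-0.0068), RLE scaling (-0.0063), upper-quartile scaling (-0.029), a filter of 1 CPM in 4 libraries (-0.0084) and without control 2 (-0.053), KO-labelled 2 (-0.014) or KO-labelled 3 (-0.045); leaving out each library gave -0.053 to 0.043. That of Fbln1 ran from -0.0052 without control 2 to 0.20 without control 4. The median of the other small leucine-rich proteoglycans was -0.51 with no filter, -0.0011 when KO-labelled 1 was left out and -0.20 when KO-labelled 2 was, in a range up to 0.46 without control 2, and that of the Gla list was -0.20 with no filter; the cause was not tested, though these alternatives test different genes. Whether replicate numbers pair the libraries was not clear. Deviations of same-numbered libraries correlated at 0.25, 0.28, -0.16 and 0.0099 for replicates 1 to 4. Of the 4 numbers, 2 matched best with themselves, replicates 1 and 2. With the replicate block, 2237 genes rose and 1940 fell, 1 and 3 of them matrix genes, and the median r was 0.38. Depth limits Dcn, and Mgp and Postn in the KO-labelled libraries.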
